A study of Homo sapiens with 4 samples.

Results

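The nuclear-encoded respiratory chain genes are the nuclear genes for the subunits of complexes I to V of oxidative phosphorylation. They were taken by name: all rows beginning with NDUFA, NDUFB, NDUFC, NDUFS, NDUFV, SDH, UQCR, COX4 to COX8 or ATP5, without assembly factors, antisense rows and pseudogene rows. This gave 86 members among the 19577 gene rows of the series, with 85, 85, 83 and 85 of them present on the 4 plates, and left out 20 names. By complex, 37 members belonged to complex I, 4 to complex II, 9 to complex III, 16 to complex IV and 16 to complex V (the ATP synthase). The last 4 were COX7A2L, a factor of respiratory supercomplexes, ATP5S and ATP5SL, which are not core subunits of the synthase, and the readthrough row ATP5J2-PTCD1.

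Complexes I, III and IV pump protons across the inner mitochondrial membrane as electrons pass from NADH or succinate to oxygen, and complex V uses the returning protons to make ATP. Complex II feeds electrons from succinate, an intermediate of the citric acid cycle, and pumps none. All complexes but complex II are built from subunits of both genomes: the mitochondrial DNA encodes a few core subunits of complexes I, III, IV and V, and the nuclear genes counted here encode most of the others.

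The cells were MCF10A, an untransformed human mammary epithelial line, here expressing H2B-GFP. A patch of 10000 cells was seeded on fibronectin and cultured for 6 days in DMEM/F12 medium with horse serum, EGF, hydrocortisone, cholera toxin and insulin, so that all 4 plates share the line, the marker and the medium. Cells were phototagged by region of the patch. At low resolution the patch was divided into concentric rings of equal width (1000 to 1500 μm, 2 replicates). At high resolution it was divided into an outermost band of 250 μm, a second band of 250 μm within it, and the rest of the patch (2 replicates). In both, the outer region was lit to activate 1 dye and the middle region to activate 2 dyes. Cells were sorted into 1 plate of 384 wells per replicate for SORT-seq. The region of each well is not given in the labels, so cells were instead ordered by 2 measures of their own RNA, the EMT score and the mitochondrial share. Groups formed this way may differ in region, dye and light exposure, which cannot be told apart here.

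A well was kept with 2000 to 9000 features and under 40% mitochondrial counts, which left 291 and 271 cells at low resolution and 291 and 293 at high resolution, or 1146 of 1536 wells. Plate totals ran from 1.17e+07 to 1.50e+07 counts, and the median cell held 30520 to 41248 counts, of which 28.7% to 31.8% came from mitochondrially encoded (MT) rows. Low-resolution replicate 1 was sequenced on a different flow cell from the other 3 plates according to the file names. The label of the line was checked against markers: KRT5, a basal cytokeratin, had a unique molecular identifier (UMI) in 99.6% to 100% of the cells of a plate, and EPCAM, an epithelial adhesion molecule, in 59.04% to 70.8%. TP63 was found in 2.58% to 4.12% of the cells. Of the markers of other cell types, PTPRC, CD3E, CDH5, COL1A2 and PDGFRB were at or near 0 (at most 1.71% of the cells of a plate), while PECAM1 had a UMI in 28.5% to 47.1%, ACTA2 in 18.9% to 25.6%, CD68 in 18.6% to 26.96% and COL1A1 in 17.3% to 27.6% of the cells.

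Levels are given as counts per 10000 nuclear counts, that is, per 10000 counts of a plate or group of cells after spike-in and MT rows are set aside. SORT-seq counts each captured molecule once at its 3′ end, so levels of different genes can be set side by side without division by length. All members together made up 231.8 and 238.9 counts per 10000 nuclear counts on the low-resolution plates and 215.7 and 213.9 on the high-resolution plates, a mean of 225.1 ± 12.3 (SD, n = 4) or 2.25% of the nuclear transcripts. The 13 MT protein-coding rows, which encode the mitochondrial subunits of the same complexes, stood at 3536 ± 183 on the same scale.

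Complexes IV and V had the highest nuclear-encoded levels. The subunits of complex IV summed to 70.5 ± 6.60, those of complex V to 70.3 ± 2.50 and those of complex I to 58.3 ± 1.69 counts per 10000 nuclear counts (SD, n = 4), so the difference between complexes IV and V was smaller than the spread over plates. Complex III summed to 19.3 ± 1.53 and complex II to 4.02 ± 0.236.

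The member of highest level was COX6A1, the widely expressed isoform of a complex IV subunit, at 13.9 and 14.98 on the low-resolution and 13.6 and 11.4 on the high-resolution plates. ATP5B, the catalytic beta subunit of complex V, followed at 11.2, 11.9, 10.1 and 10.7, in the same order of plates, and its range overlapped with that of COX6A1. ATP5A1, the alpha subunit, stood at 9.60, 9.87, 8.78 and 8.63 and overlapped in its range with ATP5G3, 1 of 3 genes for the same subunit c of the proton-driven ring, at 9.18, 9.56, 9.12 and 8.50. NDUFA4, first assigned to complex I and now to complex IV, came next at 9.32, 9.28, 7.66 and 7.995, and its plates overlapped with those of ATP5G3. Within complex I the highest level was that of NDUFB9, an accessory subunit, at 3.68, 4.25, 3.66 and 3.74.

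Isoforms differed widely in level. ATP5G1 and ATP5G2, the other genes for subunit c, had 1.83 ± 0.138 and 4.70 ± 0.225 counts per 10000 nuclear counts (SD, n = 4), against 9.09 ± 0.437 for ATP5G3, and the plates of the 3 genes did not overlap. COX7A1, the isoform of heart and skeletal muscle, was found at 0.539, 0.552, 0.420 and 0.413, far below the plates of its widely expressed counterpart COX7A2 at 4.32, 4.58, 4.13 and 3.93. NDUFA4L2, a relative of NDUFA4 known as a hypoxia-induced gene, had a UMI in 1.03%, 0.738%, 0% and 0.341% of the cells of the 4 plates; 0 of 291 cells allows a share of up to 1.03% of cells with a UMI, which covers counting error only and is no limit on cells that express the gene. COX4I2, the second isoform of subunit 4, had no row, COX6A2, COX8C, COX6B2 and ATP5L2 were each found in at most 4.78% of the cells of a plate, and ATP5J2-PTCD1 in at most 5.84%.

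Some rows share sequence with close copies, so their levels are uncertain. UQCRH, the hinge protein of complex III, had 0.221, 0.253, 0.143 and 0.228 counts per 10000 nuclear counts, and the near-identical UQCRHL had 0.159, 0.144, 0.117 and 0.165. ATP5E, the epsilon subunit of complex V, had 0.140, 0.177, 0.183 and 0.154. SDHA, the flavoprotein of complex II, had 0.400, 0.516, 0.409 and 0.331, while 3 pseudogene rows of its name had at most 0.0359 each. The plot of levels by plate shows members above a mean of 0.05.

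**Figure D1:**
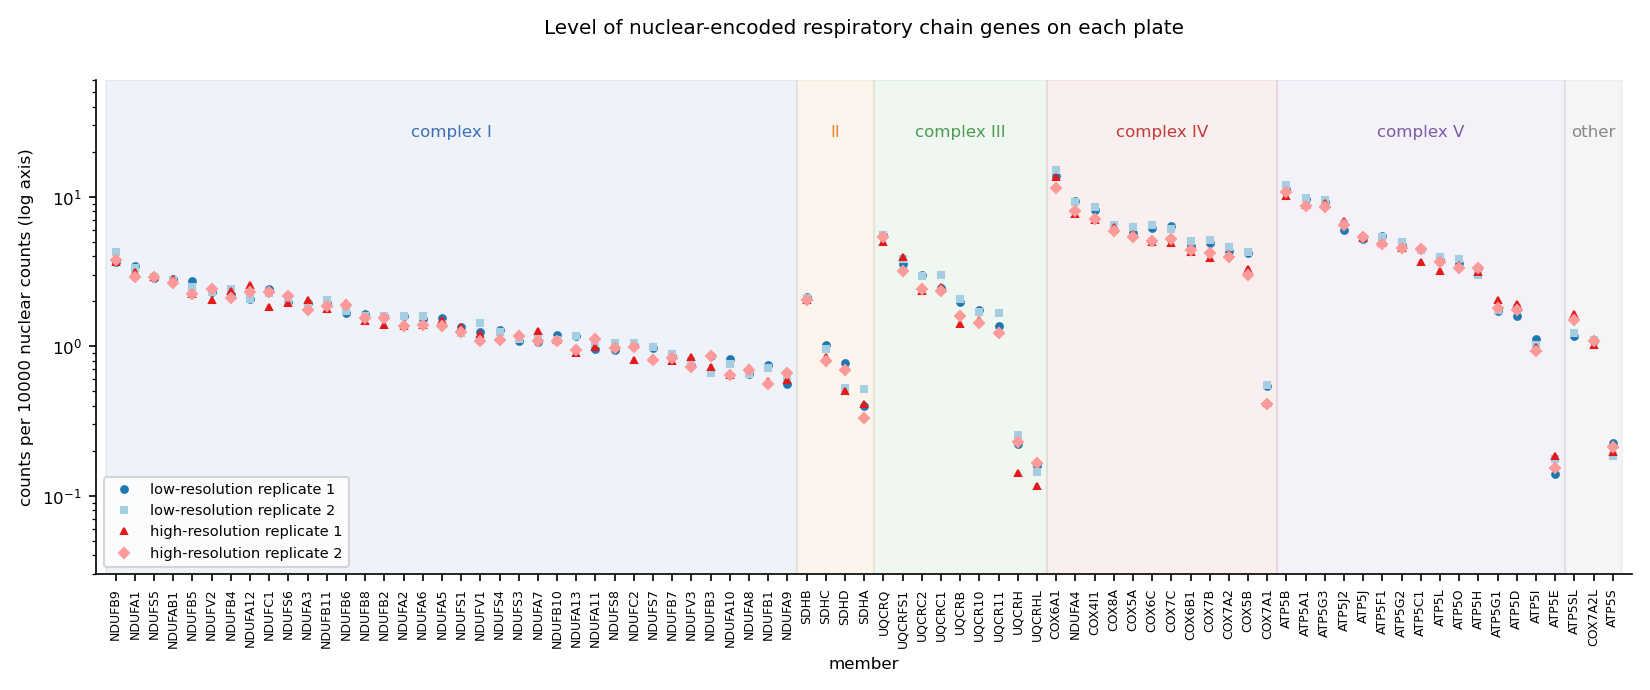
Level of members on each of the 4 plates (counts per 10000 nuclear counts, log axis), grouped by complex and sorted within it. The members drawn have a mean of at least 0.05. Complexes IV and V hold the highest members, led by COX6A1 (11.4 to 14.98) and ATP5B (10.1 to 11.9), and UQCRH, UQCRHL, ATP5E and ATP5S lie lowest.

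From cell to cell, the summed member level varied more than counting allows. The lowest, median and highest cell had 124, 219 and 432 counts per 10000 nuclear counts on low-resolution replicate 1 and 130, 224 and 435 on replicate 2. On the high-resolution plates the same values were 114, 202 and 398 and 116, 208 and 372. The coefficient of variation over cells was 22.3% to 24.2% per plate, against 4.29% to 4.83% from counting alone.

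The complexes varied together across cells. Spearman correlations between the summed levels of complexes I and V had a mean of 0.82 over the plates (0.80 to 0.84), and those between complexes I and IV of 0.73 (0.68 to 0.75). Complex II, of which few molecules were counted per cell, had means of 0.41 to 0.51 with the other complexes. These correlations are descriptions over 271 to 293 cells a plate, in which the levels of a cell share its library and its nuclear counts. The correlation of the summed member level with the nuclear counts of the cell was 0.03 to 0.22.

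The first comparison asked how the members differ along the epithelial-to-mesenchymal transition (EMT), a change of state in which cadherin junctions are lost and mesenchymal genes such as vimentin come on. An EMT score was computed per cell as a mesenchymal minus an epithelial gene set score (GSVA), from lists that hold no member, and the 97, 90, 97 and 97 cells of highest score on the 4 plates (EMT-high cells) were compared with equal numbers of lowest score (EMT-low cells). The 4 plates served as replicates. The plates of each experiment are biological replicates by the study's account. With plate as block, p-values here measure how far the change between the groups varied over plates. The score separated the groups in its own markers: VIM, a mesenchymal intermediate filament, was higher by 5.44 ± 0.15 on the log2 scale (SE) and CDH1, the epithelial cadherin, was lower, at -4.53 ± 0.20. These markers are in the lists or follow from them and check the split only.

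Cells with a high EMT score had lower levels of nuclear respiratory chain transcripts. The summed member level was 247 in EMT-low and 197 in EMT-high cells on low-resolution replicate 1, 258 and 206 on replicate 2, 255 and 180 on high-resolution replicate 1 and 247 and 189 on replicate 2. EMT-high cells were lower on every plate, and their 4 values did not overlap with those of EMT-low cells. The mean log2 ratio was -0.38 ± 0.08 (SD, n = 4).

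Of 80 members tested, 48 fell and 1 rose at an adjusted p under 0.05 (edgeR quasi-likelihood test), where 20.3% of all 10679 rows tested fell and 20.8% rose. The median log2 fold change was -0.32 over the members and 0.01 over all rows, and 76 members were below 0. Among 1413 other nuclear genes within the middle range of member levels (1.04 to 3.72 counts per 10000 nuclear counts), 21.0% fell and 32.6% rose. Of the 40 members in that range, 23 fell and 0 rose.

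The share that fell differed among the complexes. In complex IV 11 of 12 tested members fell, in complex II 4 of 4, in complex V 10 of 15 with 1 riser, in complex III 5 of 9 and in complex I 18 of 37. Summed over its members, complex IV changed by -0.53 ± 0.08 on the log2 scale (SD, n = 4), complex II by -0.52 ± 0.12, complex III by -0.39 ± 0.09, complex V by -0.33 ± 0.12 and complex I by -0.28 ± 0.06. The difference between complexes was not tested.

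**Figure D2:**
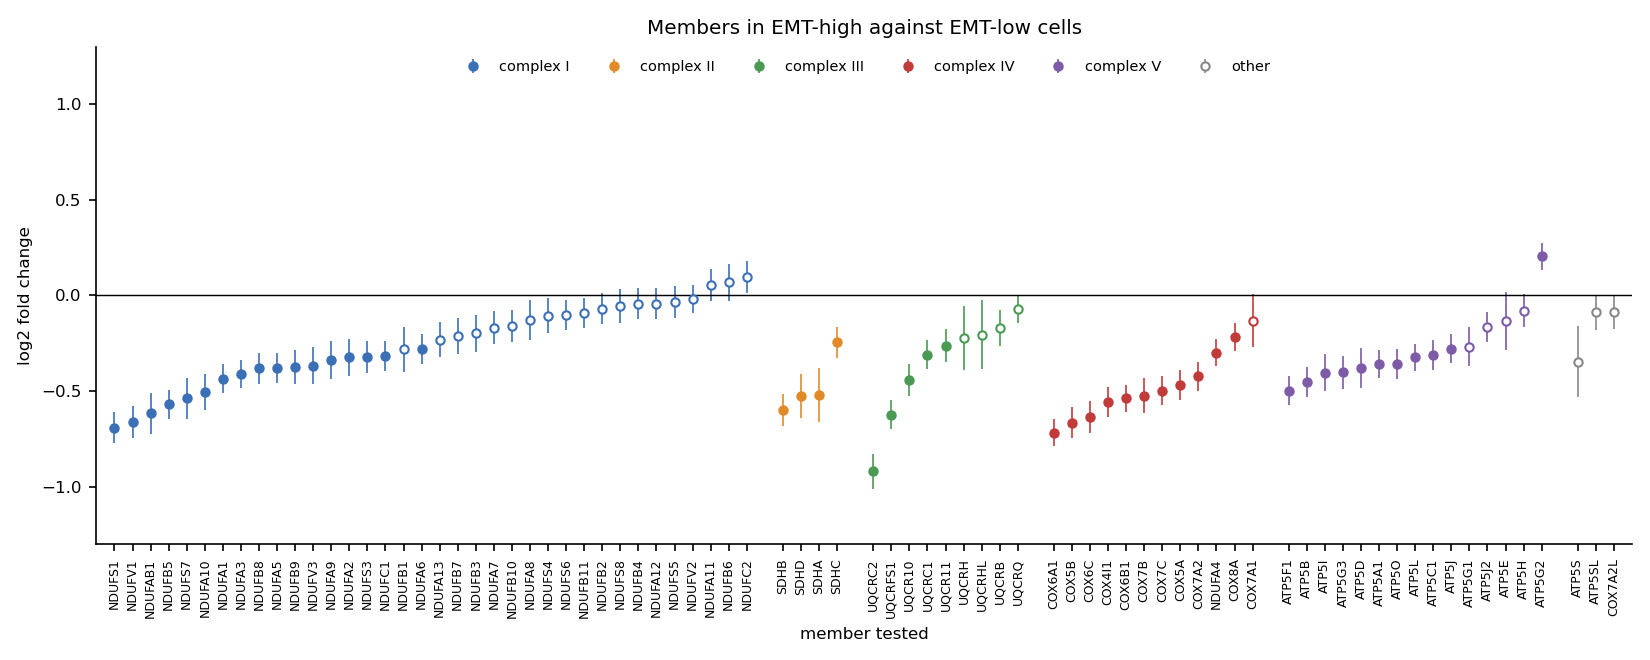
Log2 fold change of members tested in EMT-high against EMT-low cells, with standard errors, by complex. Filled points have an adjusted p under 0.05. All but 4 members lie below 0, UQCRC2 is lowest at -0.92, and ATP5G2 is the only filled point above 0.

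In complex IV, which passes electrons to oxygen, COX6A1 fell most. Its level was 16.9, 18.1, 17.5 and 14.4 in EMT-low cells and 10.1, 10.6, 10.1 and 9.30 in EMT-high cells of the 4 plates (low-resolution replicates 1 and 2, then high-resolution replicates 1 and 2), without overlap. The log2 fold change was -0.72 ± 0.07 (SE; adjusted p = 1.1e-05). COX5B, a subunit that binds zinc, went from 4.97, 5.27, 4.22 and 3.71 to 3.13, 3.09, 2.45 and 2.59, and every EMT-high value lay below every EMT-low value (-0.67 ± 0.08, adjusted p = 4.9e-05). COX6C fell by 0.64 ± 0.08 and COX4I1, the main isoform of subunit 4, by 0.56 ± 0.08 on the log2 scale. COX7C and COX5A fell by 0.50 ± 0.08 and 0.47 ± 0.08, COX7A2 by 0.42 ± 0.07 and NDUFA4 by 0.30 ± 0.07. COX8A changed least of those that fell, at -0.22 ± 0.07 (adjusted p = 0.035). The muscle isoform COX7A1 did not pass the test, at -0.13 ± 0.14 (adjusted p = 0.48).

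In complex III, which passes electrons from ubiquinol to cytochrome c, UQCRC2 had the lowest fold change of all members. This core protein went from 3.52, 3.58, 3.30 and 3.32 in EMT-low to 2.01, 2.10, 1.45 and 1.66 in EMT-high cells, with a wide gap between the groups. Its log2 fold change was -0.92 ± 0.09 (adjusted p = 9.7e-06). UQCRFS1, the Rieske iron-sulfur protein, fell by 0.62 ± 0.07 and UQCRC1, the other core protein, by 0.31 ± 0.07. UQCRB and UQCRH did not pass, at -0.17 ± 0.09 (adjusted p = 0.18) and -0.22 ± 0.17 (adjusted p = 0.31).

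In complex I, which takes electrons from NADH, NDUFS1 and NDUFV1, both of the NADH-oxidising arm, had the lowest fold changes. NDUFS1, an iron-sulfur subunit, went from 1.61, 1.55, 1.72 and 1.62 to 1.05, 0.874, 1.06 and 0.987, with no overlap (-0.69 ± 0.08, adjusted p = 4.4e-05). NDUFV1, which binds NADH, went from 1.56, 1.73, 1.52 and 1.39 to 0.934, 1.00, 1.08 and 0.845 (-0.66 ± 0.08, adjusted p = 8e-05). NDUFB9 fell by 0.37 ± 0.09. NDUFA11, NDUFB6 and NDUFC2, all accessory subunits, were above 0 without passing the test, at 0.05 ± 0.08, 0.07 ± 0.10 and 0.10 ± 0.08, and NDUFV2, the partner of NDUFV1 in the same arm, was at -0.02 ± 0.07; NDUFV2 was picked after its value was seen.

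All 4 subunits of complex II fell. SDHB, its iron-sulfur protein, went from 2.25, 2.33, 2.60 and 2.50 in EMT-low to 1.56, 1.63, 1.50 and 1.62 in EMT-high cells, without overlap (-0.60 ± 0.08, adjusted p = 0.00015). The membrane anchors SDHD and SDHC fell by 0.53 ± 0.12 and 0.25 ± 0.08 (edgeR, adjusted p = 0.0037 and 0.035). SDHA fell by 0.52 ± 0.14 (adjusted p = 0.012), where the caution on its pseudogenes holds. Of the 4, only SDHB was called under every alternative setting.

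Complex V held the only riser, and it set the genes for subunit c apart. ATP5G2 stood at 4.31, 4.61, 4.20 and 4.51 in EMT-low and 5.06, 5.52, 4.66 and 4.85 in EMT-high cells, higher on each plate (0.20 ± 0.07, adjusted p = 0.041). It did not pass with any plate left out, with adjusted p between 0.067 and 0.14. ATP5G3 went the other way, from 9.49, 9.91, 11.3 and 10.0 to 7.75, 8.40, 7.08 and 7.17 (-0.40 ± 0.09, adjusted p = 0.0032). ATP5G1 was at -0.27 ± 0.10 (adjusted p = 0.06). Of the catalytic head, ATP5B fell by 0.45 ± 0.08 and ATP5A1 by 0.36 ± 0.07. The supercomplex factor COX7A2L was at -0.09 ± 0.09 (adjusted p = 0.45).

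**Figure D3:**
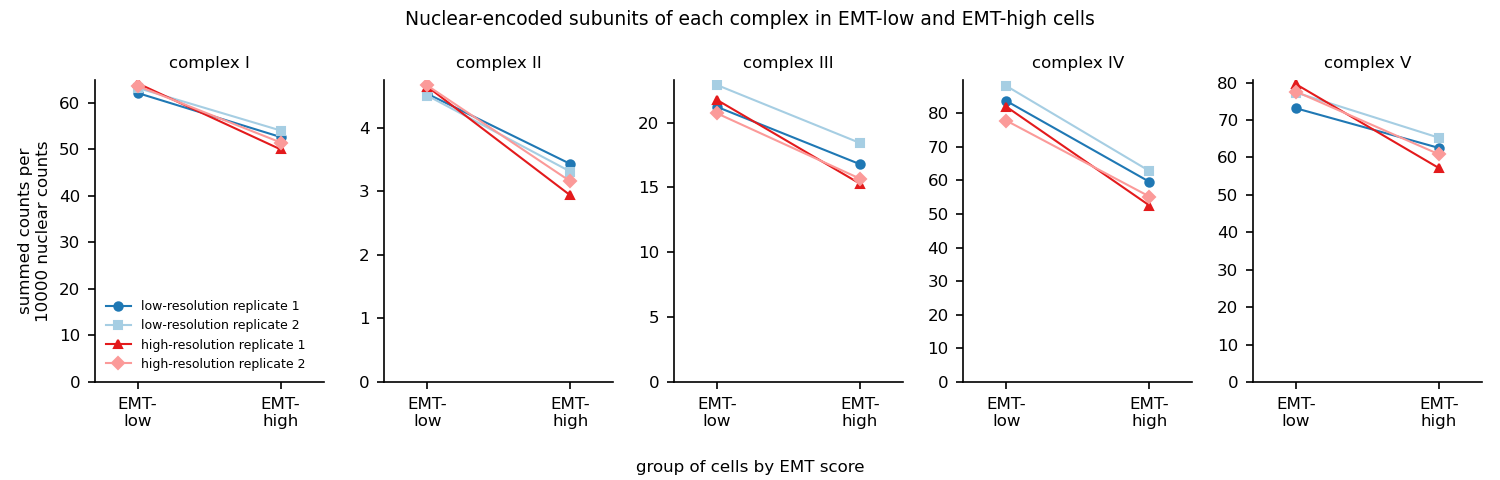
Summed level of the nuclear-encoded subunits of each complex (counts per 10000 nuclear counts) in EMT-low and EMT-high cells, 1 line per plate. All 20 lines fall, most steeply for complexes II and IV (mean log2 ratios of -0.52 and -0.53).

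The course along the score differed in shape between plates. The cells of each plate were cut into 10 bins of equal size by EMT score. The summed member level of low-resolution replicate 1 was 233 in bin 1 (lowest scores), 268 in bin 4, 245 in bin 6 and 185 in bin 10. That of replicate 2 was 266, 239, 264 and 200.5 in the same bins. On high-resolution replicate 1 the level was 268 in bin 1, 211 in bin 5 and 171 in bin 10, and on replicate 2 it was 261, 207 and 180.3. In bin 5 the low-resolution plates still stood at 255 and 258, above both high-resolution plates. Bins are ranks within a plate, and bin 5 had median scores of -0.11 and -0.27 at low and 0.23 and -0.05 at high resolution. The score was computed separately for each experiment, so bins or scores of different experiments need not mean the same EMT state. Each bin is 27 to 30 cells of 1 plate, and the difference in shape was not tested.

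**Figure D4:**
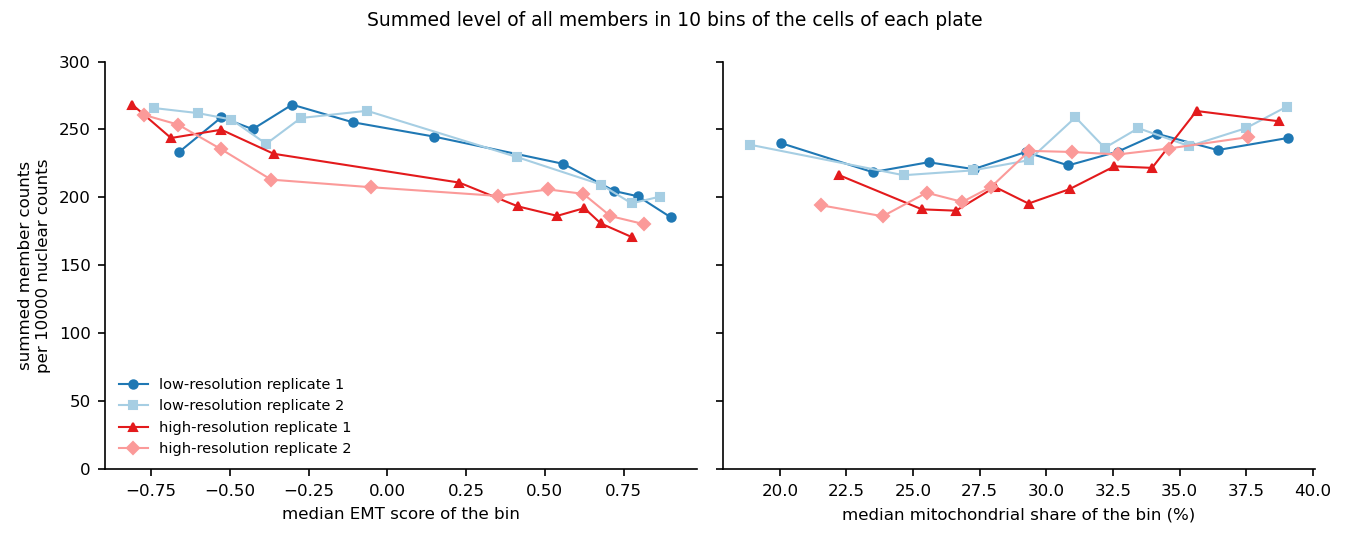
Summed member level (counts per 10000 nuclear counts) in 10 bins of the cells of each plate, against the median EMT score (left) or the median mitochondrial share (right) of the bin. EMT scores were computed separately for each experiment and are not on a common scale. On all 4 plates the level in bin 10 of the EMT score, between 171 and 200.5, is below that in bin 1. They are higher in bin 10 than in bin 1 of the mitochondrial share, by the least on low-resolution replicate 1 (239.9 and 244).

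Across single cells, the summed member level had a Spearman correlation with the EMT score of -0.39 and -0.36 on the low-resolution and -0.63 and -0.50 on the high-resolution plates (n = 291, 271, 291 and 293 cells). Member by member, 59 of 80 were below 0 on all 4 plates, against 28.6% of 8006 nuclear genes found in at least 20% of the cells of each plate (members included), and 6 were at or below -0.3 on all 4, against 2.95%. The lowest means were those of COX6A1 (-0.61), COX4I1 (-0.46), UQCRC2 (-0.44), COX6C (-0.44) and COX5B (-0.40), and 4 of these 5 encode complex IV subunits. The highest was that of ATP5G2, at 0.12. Scores and levels of a cell come from the same library.

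EMT-high cells also differed in other measures. Their median mitochondrial share was 26.1% to 29.5%, against 31.9% to 34.004% in EMT-low cells, and 40.2% to 71.1% of them were in phase G1 by their cell cycle genes, against 59.8% to 79.4%. Among cells in G1, 40 members fell and 1 rose, with a median of -0.26, where 19.9% of all rows fell and 20.3% rose. With the groups drawn within each of 10 bins of the mitochondrial share, so that both groups had medians of 28.5% to 31.8%, 45 fell and 1 rose, also with a median of -0.26, against 15.9% and 17.4% of all rows. Nuclear counts per spike-in count, a measure of RNA amount, were 59.7 to 93.6 in EMT-low and 58.8 to 96.7 in EMT-high cells, while member counts per spike-in count were 1.54 to 2.39 and 1.21 to 1.74 and were lower in EMT-high cells on each plate. COX6A1, COX5B and ATP5B had a UMI in 98.97% to 100% and UQCRC2 in 95.9% to 98.2% of the cells of each plate. Of 9 markers of other cell types, 4 could be tested and ACTA2, a smooth muscle actin, was higher by 1.38 ± 0.19 at a high EMT score, while CD68, PECAM1 and COL1A1 did not pass. Their summed level was 0.486 to 0.541 in EMT-low and 0.540 to 0.836 in EMT-high cells, with PTPRC, CD3E, CDH5, COL1A2 and PDGFRB at or near 0, and their part in the result was not tested.

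The genes around the chain moved in part with it, and their lists were chosen with earlier results known. Among all rows tested, 20.3% fell and 20.8% rose. Cytochrome c (CYCS) and cytochrome c1 of complex III (CYC1) both fell, by 0.44 ± 0.09 and 0.42 ± 0.09 on the log2 scale. Of 47 assembly factors tested, 16 fell and 2 rose, led by PET117 and COX14, both for complex IV, at -1.25 ± 0.19 and -0.70 ± 0.15. Of 7 ATP synthase regulators and carriers 4 fell (57.1%), with SLC25A4, the ADP/ATP carrier of muscle and heart, at -1.06 ± 0.09 and its relative SLC25A5 at -0.46 ± 0.08. In the citric acid cycle 12 of 18 fell (background 20.3%), among them IDH2 at -1.04 ± 0.11 and SUCLA2 at -0.84 ± 0.10. Glycolysis was mixed, with 7 of 17 lower (41.2%), such as ALDOA (-0.55 ± 0.07), and 4 higher (23.5%, near the background), such as LDHB (0.56 ± 0.11). Of 15 regulators of mitochondrial biogenesis 7 fell (46.7%) and 3 rose (20.0%, near the background). PPARGC1B, a coactivator of respiratory genes, was at -2.03 ± 0.19, ESRRA, a nuclear receptor that it acts through, at -0.92 ± 0.17, and HIF1A, the hypoxia factor, at 1.71 ± 0.12. Of 24 genes for expression of the mitochondrial genome, 3 fell (12.5%) and 1 rose (4.17%), both below the shares of all rows. TUFM, a translation factor, was at -0.43 ± 0.08.

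Promoters of members are printed here since the transcription factors NRF1, ETS factors such as GABP, and YY1 are known to act on such promoters. RefSeq windows of GRCh38.p14 (250 bases before to 50 after the start) matched 69 of 86 members. The ETS letters CCGGAAG, on either strand, were in 27.5% of the 69 and in 10.3% of all 35116 promoters, in 14 of 40 members that fell and in 5 of 25 tested members that did not. The NRF1 letters GCGCATGCG were in 14.5% of members and 1.92% of all, the YY1 letters AAGATGGCG in 11.6% and 1.75%, and the CCAAT letters in 33.3% and 34.6%. NRF1 letters were in 6 of 40 members that fell and 4 of 25 that did not, and YY1 letters in 6 and 2. CCAAT letters were in 11 of the 40 and 10 of the 25, a higher share in those that did not fall. Both strands were searched and no motif is part of another. These are counts of letters, with no test, and not sites of binding. The NRF1 and YY1 motifs were shortened after seeing the data, and the 35116 promoters were not matched to the members by level. The 250 bases before the start of 4 members that fell are given 5′ to 3′ on the strand of the gene, with the ETS and NRF1 letters in capitals. They are the 3 members of lowest fold change among those holding such letters, COX6A1 (chr12:120437863-120438112, plus strand), NDUFS1 (chr2:206159445-206159694, minus strand) and COX5B (chr2:97645812-97646061, plus strand), and SDHD (chr11:112086623-112086872, plus strand), which like COX6A1 holds both.
COX6A1: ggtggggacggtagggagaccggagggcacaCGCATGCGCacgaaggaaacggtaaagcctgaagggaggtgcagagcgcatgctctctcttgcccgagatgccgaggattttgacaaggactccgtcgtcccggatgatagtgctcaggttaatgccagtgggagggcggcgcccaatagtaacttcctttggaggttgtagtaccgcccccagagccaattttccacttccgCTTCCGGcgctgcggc
NDUFS1: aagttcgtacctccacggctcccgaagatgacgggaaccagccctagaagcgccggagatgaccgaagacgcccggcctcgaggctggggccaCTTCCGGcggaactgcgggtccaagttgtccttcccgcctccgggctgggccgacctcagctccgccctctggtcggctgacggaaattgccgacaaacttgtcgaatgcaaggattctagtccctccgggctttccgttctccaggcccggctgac
COX5B: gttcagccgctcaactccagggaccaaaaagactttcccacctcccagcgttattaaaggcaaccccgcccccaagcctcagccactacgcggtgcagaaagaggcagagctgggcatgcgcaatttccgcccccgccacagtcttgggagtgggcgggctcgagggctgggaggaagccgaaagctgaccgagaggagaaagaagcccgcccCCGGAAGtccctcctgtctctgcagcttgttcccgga
SDHD: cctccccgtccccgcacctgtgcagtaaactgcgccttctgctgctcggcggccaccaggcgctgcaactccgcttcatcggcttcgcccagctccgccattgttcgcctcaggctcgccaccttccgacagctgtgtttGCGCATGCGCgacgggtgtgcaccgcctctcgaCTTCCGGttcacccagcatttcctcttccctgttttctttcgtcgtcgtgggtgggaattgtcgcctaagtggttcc
The ETS letters begin at -16 in COX6A1, -37 in COX5B, -77 in SDHD and -157 in NDUFS1, counted in bases to the start, and the NRF1 letters at -219 in COX6A1 and -110 in SDHD.

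The mitochondrially encoded subunits also fell along the EMT score, by an amount within the range of the nuclear parts of the complexes. Those ran from -0.53 ± 0.08 for complex IV to -0.28 ± 0.06 for complex I, with complex V at -0.33 ± 0.12 (log2, SD). Of the 13 MT protein-coding rows, 11 fell and 0 rose. The summed MT protein-coding level was 3941, 4057, 3970 and 3745 counts per 10000 nuclear counts in EMT-low and 2998, 3395, 3302 and 2960 in EMT-high cells, lower on each plate (mean log2 ratio -0.31 ± 0.06, SD, n = 4). MT-CO2, a core subunit of complex IV, fell most, by 0.51 ± 0.07 on the log2 scale. MT-ND1 was at -0.15 ± 0.08 (adjusted p = 0.14) and MT-ND6, the sole subunit encoded on the light strand, at 0.20 ± 0.11 (adjusted p = 0.17). MT-ND6 is counted at 1.45 to 1.84 per 10000 nuclear counts, against 632 to 719 for MT-ATP6.

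The second comparison set the nuclear members against the MT rows across cells. The mitochondrial share is the share of MT counts among the counts of a cell without spike-ins, and groups of the same sizes were formed from it, with medians of 34.3% to 37.1% in MT-high and 23.6% to 25.7% in MT-low cells. The 13 MT protein-coding rows rose by construction of the split, with a median log2 fold change of 0.78. The summed member level was 226 in MT-low and 242 in MT-high cells on low-resolution replicate 1, 223 and 249 on replicate 2, 202 and 245 on high-resolution replicate 1 and 194 and 237 on replicate 2. It was higher in MT-high cells on all 4 plates (mean log2 ratio 0.21 ± 0.10, SD), by the least on low-resolution replicate 1.

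Of 80 members tested, 24 rose and 0 fell (edgeR), where 17.6% of all 10581 rows tested rose and 18.9% fell. At an unadjusted p under 0.05 there were 30 members in either direction, against 44.9% of all rows, and DESeq2 called 17 higher, against 10.2%, and 0 lower. In the middle range of member levels 20.0% of the other nuclear genes rose and 36.02% fell. The median over the members was 0.13 and that over all rows was -0.003. In complex IV 11 of 12 members rose, in complex III 4 of 9, in complex I 8 of 37, in complex V 1 of 15 and in complex II 0 of 4. Complex IV summed to 68.4, 69.7, 60.2 and 55.05 counts per 10000 nuclear counts in MT-low and to 81.7, 85.4, 79.5 and 75.2 in MT-high cells, a mean log2 ratio of 0.35 ± 0.09 (SD).

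COX7A1, which had not passed the test along the EMT score, had the largest rise here. Its level was 0.443, 0.495, 0.364 and 0.324 in MT-low and 0.617, 0.672, 0.606 and 0.587 in MT-high cells, without overlap (0.60 ± 0.11, adjusted p = 0.0012). NDUFB1, an accessory subunit of complex I, rose by the same amount, from 0.617, 0.657, 0.472 and 0.400 to 0.879, 0.854, 0.784 and 0.742 (0.60 ± 0.10, adjusted p = 0.00091). UQCRC2 rose by 0.53 ± 0.08, COX5B by 0.51 ± 0.07 and NDUFB5, another accessory subunit, by 0.46 ± 0.07. COX6A1 rose by 0.45 ± 0.07, NDUFS1 by 0.45 ± 0.08, COX6C by 0.43 ± 0.07, COX7C by 0.41 ± 0.07 and NDUFV1 by 0.38 ± 0.08. COX8A was at -0.003 ± 0.07 (adjusted p = 0.98), the only complex IV member tested that did not rise, and SDHB at 0.01 ± 0.08 (adjusted p = 0.94). In complex V ATP5A1 rose by 0.21 ± 0.07, while ATP5B was at 0.15 ± 0.07 (adjusted p = 0.12).

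The 2 comparisons use the same cells and are not independent. Both lists share 20 members, 41.7% of the 48 that fell with the EMT score and 83.3% of the 24 that rose with the mitochondrial share. Of all 80 members tested, 60% fell with the EMT score, which alone makes a large overlap likely. The overlap among other rows was not counted. COX7A1, NDUFA13, NDUFB1 and UQCRB were in the second list only. The EMT score and the mitochondrial share had Spearman correlations of -0.47 to -0.30 across the cells of a plate. With MT-high and MT-low cells drawn within each of 10 bins of the EMT score, 12 members rose and 3 fell, against 11.7% and 13.6% of all rows in that setting, and the median was 0.01. The members' share that rose was thus near the background. COX7A1, NDUFB1 and NDUFA13 were then at 0.62 ± 0.11, 0.43 ± 0.09 and 0.40 ± 0.08, and SDHB fell by 0.23 ± 0.07. Complex IV members among the 12 were COX7A1, COX5B, COX7C, COX6C, COX6A1 and NDUFA4.

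**Figure D5:**
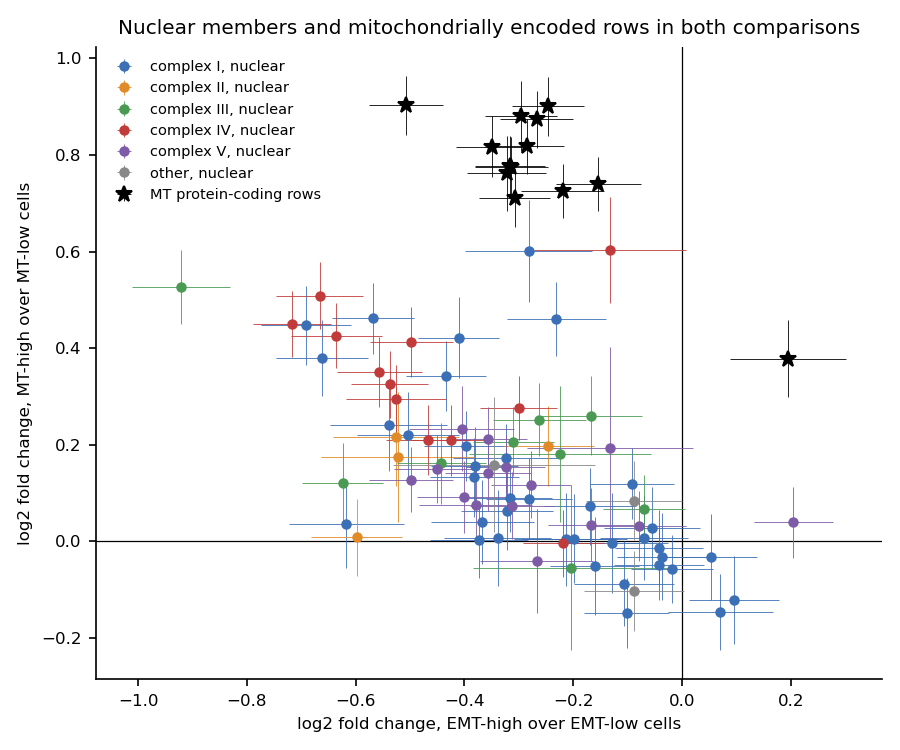
Log2 fold changes of the nuclear members (circles, by complex) and of the 13 MT protein-coding rows (stars) in the EMT comparison (x axis) and the mitochondrial share comparison (y axis), with standard errors. Most members lie left of 0 and above 0, with UQCRC2 and several complex IV members farthest to the left. MT-ND6 is the star at the right. The same cells enter both axes, so the slope of the cloud is not a result.

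Across single cells, the summed member level had correlations with the mitochondrial share of 0.11 and 0.20 on the low-resolution and 0.33 and 0.40 on the high-resolution plates, a mean of 0.26 ± 0.13 (SD). Both measures of a cell have its nuclear counts below the line. With MT rows counted in the library size, the correlations were -0.22, -0.14, 0.05 and 0.08, so their sign depends on that choice. Member by member, 36 of 80 were above 0 on all 4 plates, against 17.6% of the 8006 genes. Of the complexes, complex IV had the highest mean, 0.38 (0.25 to 0.53), and complex II the lowest, 0.07. The closest MT rows were those of complex V for the nuclear subunits of every complex, complex V included (mean 0.28): nuclear complex I had a mean of 0.11 with the MT-ND rows and 0.29 with MT-ATP6 and MT-ATP8, while nuclear complex IV had 0.42 with the MT-CO rows, 0.49 with MT-ATP6 and MT-ATP8 and 0.21 with MT-CYB.

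MT-high cells also differed from MT-low cells in other measures. Of MT-high cells 68.04% to 91.1% were in G1, against 31.96% to 55.6% of MT-low cells, and they held 51.2 to 82.2 nuclear counts per spike-in count against 66.2 to 103. Member counts per spike-in count were lower in MT-high cells on each plate (1.26 against 1.59, 1.28 against 1.48, 2.02 against 2.08 and 1.58 against 1.85). The rise is one relative to other nuclear transcripts. Among cells in G1, 13 members rose, against 9.15% of all rows. Of the lists around the chain, 4 of 24 genes for expression of the mitochondrial genome fell and 0 rose, and of 47 assembly factors 3 rose and 5 fell, all shares below those of all rows (17.6% and 18.9%). TFAM, which packages and transcribes mitochondrial DNA, was at -0.45 ± 0.11, but at 0.0053 (adjusted p = 0.99) among cells in G1, and TFB2M, its transcription partner, was at -0.50 ± 0.12. Of 15 biogenesis regulators 6 rose, PPARGC1B at 1.46 ± 0.15 and PPARGC1A at 1.21 ± 0.34 among them; among cells in G1 PPARGC1A was at 0.69 (adjusted p = 0.17).

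The last comparison was between the high- and low-resolution experiments, each over all cells of its 2 plates. The experiments divided the patch differently, and the share of cells from each region on a plate is not known here. Few members passed the test. ATP5SL, not a subunit of the synthase despite its name, stood at 1.17 and 1.22 at low and 1.64 and 1.49 at high resolution (0.44 ± 0.11, adjusted p = 0.025). COX5B stood at 4.21 and 4.27 at low and 3.27 and 2.99 at high resolution (-0.39 ± 0.10, adjusted p = 0.031), and UQCRB, a complex III subunit, at 1.96 and 2.07 and at 1.40 and 1.58 (-0.38 ± 0.12, adjusted p = 0.048). Thus 1 of 81 members rose and 2 fell, below the background of 6.01% and 6.25% of 12437 rows. Without low-resolution replicate 1, which had its own flow cell, and likewise without high-resolution replicate 1, 0 members passed (12 and 2 at an unadjusted p under 0.05, against 24.6% and 20.8% of all rows), and without either of the other plates only ATP5SL did.

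The plates of the experiments did not overlap for 38 of the 81 members, against 57.4% of all rows, with 28 lower and 10 higher at high resolution. The direction of the other rows without overlap was not counted. Over all cells, 25 members were above and 56 below 0, with a median of -0.07, against -0.02 over all rows. Among cells in G1 this lean was absent, with 41 above and 39 below 0 and a median of 0.008, against -0.02. Complex IV had 11 of 12 members below 0, with a median of -0.20, and complex I was at -0.02, like all rows together. The 13 MT protein-coding rows had a median of -0.06 and an adjusted p of at least 0.05 each. In the same comparison VIM and FN1 were higher by 0.93 ± 0.13 and 0.76 ± 0.11 at high resolution and CDH1 was lower, at -0.69 ± 0.12, and 157 of 291 and 153 of 293 cells were in G1 there, against 197 of 291 and 192 of 271.

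Whether the effect along the EMT score differed between the experiments was tested as an interaction. It passed for 1 member, NDUFAB1, the acyl carrier protein of mitochondria and a complex I subunit, against 3.22% of all rows. For the mitochondrial share 0 of 80 members passed (edgeR), against 0.00945% of all rows. At an unadjusted p under 0.05 there were 10 members, against 8.86% of all rows, and DESeq2 also called 0.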

How the data were processed

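SORT-seq, a plate-based single-cell method with unique molecular identifiers (UMIs), was run on 4 plates of MCF10A cells. The submitters' processing notes name STAR 2.7.3a, Seurat 4 and the build hg38; the annotation is not given in the sources used here. The authors deposited 1 table of expected counts per plate, in which UMI counts per gene and well are corrected for collisions among 4096 identifiers. Undoing that correction gave whole numbers for all 7245730 values above 0 (tolerance 1e-06), which are molecules counted, not reads. The cell filter asked for 2000 to 9000 features and for less than 40% mitochondrial counts, and no doublet caller was run. Levels are per 10000 nuclear counts. The EMT score was computed with an implementation of GSVA, separately for each experiment, and the phases with Seurat 5.3.0.

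Counts were summed per plate and group of cells, rounded, and tested with edgeR 4.0.16 (quasi-likelihood test, TMM factors from nuclear rows, plate as block, Benjamini-Hochberg adjustment over all rows tested, threshold 0.05; R 4.3.3). High and low resolution were compared without a block. DESeq2 1.42.0, other filters, scalings, cell sets and left-out plates were alternatives. The fits were tested on simulated data. The members and lists were chosen with earlier results of these data known, and the groups drawn within 10 bins of the other measure, and the shortened NRF1 and YY1 motifs, were chosen after seeing the data. Named were the 5 largest called rises and falls of each comparison with 1 sign on all plates, a panel of 30 subunits, the members of highest level and of highest and lowest correlation with the EMT score, the MT rows, and up to 4 genes of each other list. NDUFV2, NDUFAB1, NDUFA13 and the rare members were named after their values were seen. A panel gene is in the counts but is not reported here or drawn by name. Correlations are across cells and carry no p. Intervals and limits on counts of 0 cover counting error only.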

Additional observations from a re-analysis of the deposited data

Results flagged for a closer look

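NDUFAB1, the mitochondrial acyl carrier protein and a subunit of complex I, was the only member whose change along the EMT score differed between the experiments by the interaction test. Its level went from 2.89 and 2.91 in EMT-low to 2.18 and 2.26 in EMT-high cells at low resolution and from 3.70 and 3.45 to 1.93 and 1.95 at high resolution. The log2 ratios of the plates were -0.39 and -0.34 at low and -0.94 and -0.78 at high resolution. The difference between the experiments was -0.50 ± 0.12 on the log2 scale (SE, edgeR quasi-likelihood test, adjusted p = 0.034). With DESeq2 its adjusted p was 0.51, and with 1 plate left out it was 0.045 to 0.17, passing only without high-resolution replicate 2. The median member had an interaction of -0.13 and the median row of -0.02.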

How the results depend on the processing

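Of 102 recomputed counts, medians and mean correlations, 85 stayed near the reported value, 16 moved and 1 reversed. For the counts only the total of members called was compared, not its direction. Along the EMT score the number of members called stayed between 33 and 50, and 31 of the 49 calls held under every setting. ATP5G2, the only riser, was not called with DESeq2, without the filter on low counts, with MT rows in the library size, with thinned cells, with the score cut at its median, with a z-score in place of GSVA, without the plate block or with any plate left out. With the mitochondrial share, 24 members were called, against 11 with cells thinned to 10000 UMIs, 13 in G1 cells, 15 within 10 bins of the EMT score and 15 without the plate block, and 17 to 25 with 1 plate left out; 7 of the 24 held throughout (COX5B, COX6A1, COX6C, COX7C, NDUFA1, NDUFB1 and NDUFB5). The median log2 fold change within these bins was 0.014. The mean correlation with the mitochondrial share turned to -0.054 with MT rows in the library size. High against low resolution called 3 members, 1 without the mitochondrial limit, 1 in G1 cells and 0 to 1 with 1 plate left out, where the experiment with a lone plate was assumed to vary like the other; none of the 3 held throughout. The EMT interaction called 0 members with DESeq2 and 0 to 1 with 1 plate left out, and that of the mitochondrial share 0 to 2. With replicate number as a replicate block, high against low resolution also called 3 members (1 higher and 2 lower). Of all rows it called 1025 higher and 1069 lower, in place of 748 and 777. Same-numbered plates had a correlation of deviations of -0.03 over 12402 genes. This single value shows no sign of pairing but cannot exclude a shared batch.

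Some single genes changed sign. Within 10 bins of the mitochondrial share, MT-CO1 was at 0.015, MT-CO3 at 0.061, MT-CYB at 0.10, MT-ND2 at 0.061, MT-ND3 at 0.022, MT-ND4L at 0.019 and MT-RNR2 at 0.018 along the EMT score, a matching that fixes the MT rows by construction. Within 10 bins of the EMT score, EPCAM was at -0.44, FN1 at 0.66, IDH2 at -0.059, PET117 at -0.050 and SDHB at -0.23 along the mitochondrial share. TFAM was at 0.0053 in G1 cells and UQCR11 at -0.0019 after thinning. The cause of the other changes was not tested. Between 59 and 120 cells of a plate lie within 5% of the range of a cut between groups. Members with few molecules, such as UQCRH and SDHA, have wide errors at this depth.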

Other observations

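The mitochondrial transcripts differed widely in level. MT-ND6, encoded on the light strand, had 1.84, 1.62, 1.77 and 1.45 counts per 10000 nuclear counts, while MT-ATP6 had 644, 674, 719 and 632 and MT-CO2 354, 383, 344 and 323.

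Of 15 regulators of mitochondrial biogenesis, 3 fell and 0 rose at high against low resolution, where 6.25% of all rows fell. PPARGC1B and PPARGC1A were lower at high resolution, at -1.23 ± 0.19 and -1.26 ± 0.25 on the log2 scale, and TFEB at -1.14 ± 0.30 (edgeR, adjusted p = 0.002, 0.0069 and 0.028). VDAC1, a channel of the outer mitochondrial membrane, was higher by 0.40 ± 0.10. Among 18 genes of the citric acid cycle the median was 0.0016.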
